A study of Mus musculus with 4 samples.

Results

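The cells described here are 298 bone marrow cells that carried RNA of the mast cell carboxypeptidase gene Cpa3 together with RNA of at least 1 of 4 genes known from basophils and mast cells. They were chosen by measured values: at least 2 UMIs (unique molecular identifiers, which count RNA molecules once) of Cpa3 and at least 1 UMI summed over Mcpt8, Ms4a2, Prss34 and Gzmb. The choice was made among 33042 cells with at least 1000 genes, at most 10% mitochondrial UMIs and 1 dominant hashtag of at least 10 UMIs and at least 3 times the next. The members were 183 of 18294 cells in the GEM-X library and 115 of 14748 cells in the v3.1 library, 2 versions of the 10x Genomics droplet chemistry.

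All cells came from 2 male Tppp3CreER LSLTdTomato mice, in which the Tppp3 promoter drives a tamoxifen-dependent Cre recombinase and a lox-stop-lox tdTomato gene reports its activity. Both mice received tamoxifen at postnatal days 0 and 3 and were 3 months old at collection. The tdTomato-positive and tdTomato-negative cells of each mouse therefore share genotype and tamoxifen, and differ in whether the reporter was switched on in the cell or an ancestor. Cells were enriched on c-Kit beads and sorted as lineage-negative, Sca-1-positive and Kit-positive (LSK), a compartment of stem and multipotent progenitor cells. A sort for tdTomato then gave 4 tubes, each with its own hashtag, called M1pos and M2pos (tdTomato-positive, mouse 1 and mouse 2) and M1neg and M2neg (tdTomato-negative) here. The labels give 2 accounts of the sort, either 1 tube per gate with the mice together or 4 separately hashed tubes, and the second was followed. A positive and a negative tube share their animal, so p-values speak only for these tubes of 2 mice. The p-values and SEs rest on a spread pooled over genes. A small value therefore does not show that the tubes agree for that gene.

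Mast cells and basophils arise from bone marrow progenitors and store histamine, proteases and proteoglycans in granules that are released when antigen binds IgE on the high-affinity receptor FcεRI. The receptor has an alpha chain (Fcer1a), a beta chain (Ms4a2) and a gamma chain shared with other receptors (Fcer1g). GATA2 is known as a factor of the whole lineage, GATA1 as its partner and successor in several myeloid and erythroid lineages, and C/EBP alpha as a factor that favours basophils and granulocytes over mast cells. Cpa3 and Mcpt8 are also transcribed at low levels in less committed progenitors of the marrow.

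Because the members separated by GATA and C/EBP genes, as described further on, promoter sequences were searched for words of these factors. They are shown for the rule genes Cpa3, Ms4a2 and Mcpt8 and for Fcer1a. Each is the 250 bases before the RefSeq transcription start on the minus strand of GRCm38.p6, at chr3:20242182-20242431 for Cpa3, chr19:11623720-11623969 for Ms4a2, chr1:173227230-173227479 for Fcer1a and chr14:56085198-56085447 for Mcpt8. Capitals mark matches to GATA words (AGATAA and its variant AGATAG, and the forms starting with T, which are TGATAA and its variant TGATAG) or to the C/EBP word TTGCNNAA, searched on both strands, with no overlap between a GATA and a C/EBP match in these windows.
Cpa3: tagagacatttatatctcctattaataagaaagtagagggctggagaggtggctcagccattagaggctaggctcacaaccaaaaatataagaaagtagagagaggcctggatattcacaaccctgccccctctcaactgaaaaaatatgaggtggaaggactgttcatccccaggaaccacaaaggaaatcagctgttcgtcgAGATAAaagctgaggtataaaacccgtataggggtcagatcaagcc
Ms4a2: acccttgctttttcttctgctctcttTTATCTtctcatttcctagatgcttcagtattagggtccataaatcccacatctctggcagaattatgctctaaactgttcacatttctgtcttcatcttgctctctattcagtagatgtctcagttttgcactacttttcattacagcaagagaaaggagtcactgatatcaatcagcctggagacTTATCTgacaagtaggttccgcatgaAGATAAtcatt
Fcer1a: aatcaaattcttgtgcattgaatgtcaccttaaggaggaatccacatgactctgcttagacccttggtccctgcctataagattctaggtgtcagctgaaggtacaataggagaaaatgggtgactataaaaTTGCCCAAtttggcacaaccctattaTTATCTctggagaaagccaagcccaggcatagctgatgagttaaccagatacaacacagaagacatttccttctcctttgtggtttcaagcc
Mcpt8: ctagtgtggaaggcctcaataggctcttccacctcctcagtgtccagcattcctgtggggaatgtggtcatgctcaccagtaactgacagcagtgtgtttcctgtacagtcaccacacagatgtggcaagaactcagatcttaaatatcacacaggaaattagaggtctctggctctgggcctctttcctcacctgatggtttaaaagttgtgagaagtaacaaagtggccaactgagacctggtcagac

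The Cpa3 window held 1 GATA word, the Ms4a2 window held 3, the Fcer1a window held 1 GATA and 1 C/EBP word, and the Mcpt8 window held neither. Other windows were searched and are not shown. Those of the rule gene Prss34 and of Hdc held 1 GATA word each. Il1rl1 had 5 GATA words and 1 C/EBP word in its first window and 1 GATA word in its second. The windows of the rule gene Gzmb and of Elane, Ctsg, Ms4a3, Gata2 and Gata1 held neither word. GATA words of this kind stood in 27.1% of 27025 mouse promoter windows and the C/EBP word in 9.55%. A match describes these letters and not a bound site.

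The label mast and basophil primed was checked against marker RNA, which bore it out only in part. At least 1 UMI of Fcer1a or of the IL-33 receptor gene Il1rl1 was found in 50 of 298 members. Mcpt8, which encodes a granule protease of basophils, was carried by 216 members (72.5%), and 200 members qualified through Mcpt8 alone. Ms4a2 was carried by 64 members (21.5%), Gzmb, the granzyme B gene, by 41 (13.8%), and Prss34, a basophil protease gene, by 7 (2.35%). Mcpt8 and Ms4a2 occurred together in 14 members. The genes of mature mast cells Mcpt4, Tpsb2 and Tpsab1 (a chymase and 2 tryptases) and Tph1, for serotonin synthesis, had 0 UMIs in the members, where 3 counts would be 0.542 CPM. The chymase gene Cma1 had 18 UMIs in 3 members, 16 of them in 1 cell, and the basophil receptor gene Cd200r3 had 17 UMIs in 5 members. By contrast, 83 members also met a rule for granulocyte progenitors (at least 2 UMIs of Elane and at least 1 of Ms4a3), while 2 met the erythroid and 3 the megakaryocyte rule used below. The cells are therefore called Cpa3 members, and are divided by Mcpt8 into 216 Mcpt8-positive and 82 Mcpt8-negative members.

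The rule genes themselves are given as a description only. Summed over members, and expressed as CPM (UMIs of the gene scaled to equal totals per group and tube), Cpa3 was at 425, 483, 366 and 373 CPM in M1pos, M2pos, M1neg and M2neg, against 28.9, 38.7, 26.2 and 31.5 CPM in the other cells. Mcpt8 was at 78.8, 47.9, 76.5 and 111 CPM in members, against 6.96, 5.53, 6.14 and 3.87 CPM in the other cells of the same tubes. Ms4a2 was at 66.6, 47.9, 32.5 and 58.4 CPM in members, against 0.608, 0.434, 0.183 and 0.280 CPM in the other cells. The members held 17.9% of all Cpa3 UMIs in the kept cells and 20.6% of those of Mcpt8, but 72.8% of those of Ms4a2, 78.6% of Prss34 and 73.7% of Gzmb. Most RNA of Cpa3 and Mcpt8 thus lay in cells outside the rule, and most RNA of the other 3 genes lay inside it.

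Many members sat close to the threshold. Exactly 1 UMI of the 4 genes was counted in 180 members, 90 had exactly 2 UMIs of Cpa3, 61 were at both minima, and 129 rested on a single Mcpt8 UMI. Just outside stood 1691 cells with 2 or more Cpa3 UMIs and none of the 4 genes, and 183 cells with 1 Cpa3 UMI and at least 1 UMI of the 4. The histidine decarboxylase gene Hdc was at 37.6 CPM in the 180 members with 1 UMI and at 80.2 CPM in the 118 with more, against 6.68 and 16.4 CPM in the 2 outside sets. Fcer1a was at 10.8 and 25.9 CPM inside, against 3.34 and 2.21 CPM outside. The neutrophil elastase gene Elane was at 983 and 2151 CPM inside, against 230 and 1106 CPM outside. Gata2 was at 82.2 and 101 CPM inside, against 123 and 54.6 CPM outside, so for Gata2 a set outside the rule had the highest value.

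The libraries held 234563105 (GEM-X) and 178214937 (v3.1) gene UMIs in 20511 and 17755 barcodes, with 0 barcodes in common. Members had a median of 17801 UMIs per cell (lowest 1525, highest 66142) and the other 32744 cells a median of 8578. A rule that asks for at least 3 UMIs favours cells with more RNA counted. The tubes gave 49, 35, 124 and 90 members and 1065425, 438586, 2523824 and 1506523 summed UMIs in M1pos, M2pos, M1neg and M2neg. Doublets between tubes were removed by hashtag, whereas those formed inside a tube could not be removed this way and are still present. Of the members 50 had over 3 times the median UMIs of their library, 49 of them Mcpt8-positive. Tppp3, the gene whose promoter drives the Cre, had 0 UMIs in members and 183 in the far larger set of other cells. There it was at 0.551 CPM, where 3 counts in members would be 0.542 CPM. The 0 thus does not show a lower level in members.

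To describe what the members shared beyond the rule, their summed counts were compared with those of all other cells of the same tube. In edgeR's quasi-likelihood test blocked by tube, adjusted by Benjamini-Hochberg over all genes, 4837 of 13898 genes (34.8%) passed an adjusted p of 0.05. Of all genes tested, 16.9% were higher and 17.9% lower in members, with a median log2 fold change of -0.06 over all genes. Of the genes named by size, the largest increases were in Hdc, Fcer1a and Cebpe, and the largest decreases were in Camp, a granule gene of mature neutrophils, and Ebf1, a B cell factor gene. Depth moved with this contrast, and its part was tested only within cells of 5000 to 20000 UMIs, where 2848 of 13555 genes passed. The granulocyte genes moved with it too, and without members and other cells that met any of the 3 other progenitor rules 2899 of 13741 genes passed. Leaving out M1neg, the tube with the most members, left 3045 of 13927 genes.

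Hdc, which encodes the enzyme that makes histamine, had the largest increase of the genes named by size. It was at 94.8, 22.8, 46.0 and 55.1 CPM in members of M1pos, M2pos, M1neg and M2neg, against 3.50, 1.71, 1.94 and 1.48 CPM in the other cells. The lowest member value stood above every value of the other cells, and the log2 fold change was 4.81 ± 0.22 (SE; edgeR adjusted p = 1.64e-40). Fcer1a was at 4.69, 77.5, 13.5 and 15.3 CPM in members, against 0.851, 1.07, 0.723 and 0.796 CPM in the other cells (log2 fold change 4.57 ± 0.36, edgeR adjusted p = 1.18e-21). Its groups did not overlap, though M2pos was far above the other tubes, a spread that the pooled SE does not show. In mm10, with the GENCODE annotation, Hdc spans chr2:126593667-126619299 and Fcer1a chr1:173221284-173227214, both on the minus strand.

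**Figure D1:**
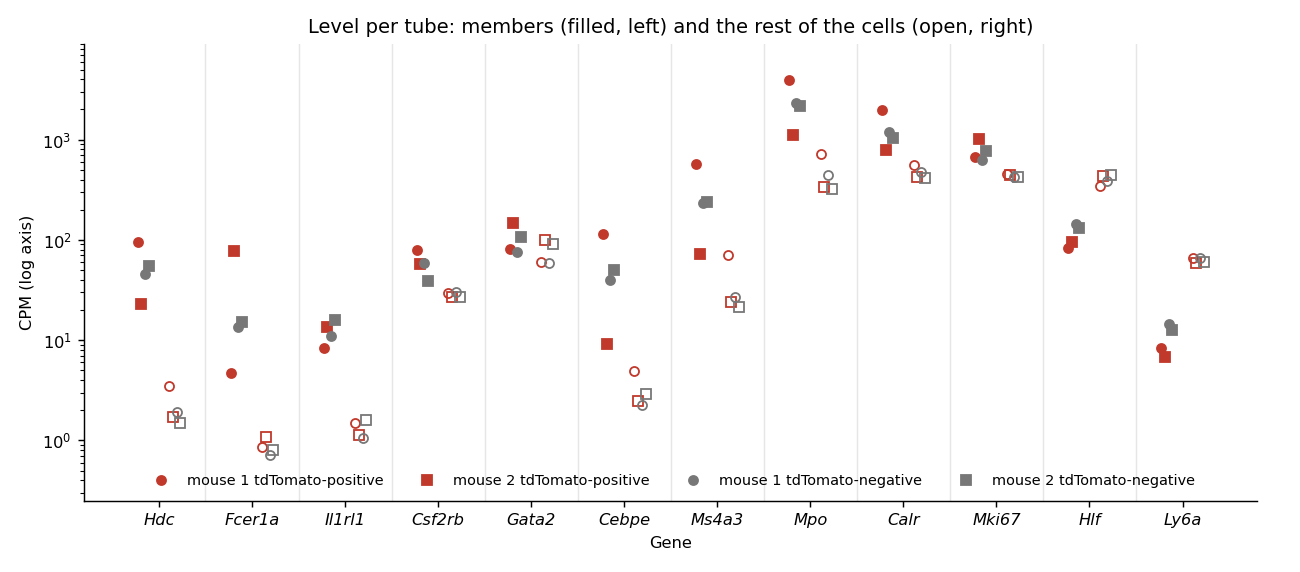
CPM (log axis) of 12 genes that the membership rule did not use, with members as filled symbols on the left and the other cells as open symbols on the right of each gene, red for tdTomato-positive and grey for tdTomato-negative tubes, circles for mouse 1 and squares for mouse 2. Hdc, Fcer1a and Il1rl1 were higher in members of all 4 tubes, Hlf and Ly6a were lower in all 4, and Cebpe, Ms4a3 and Mpo were lowest among members in M2pos.

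Receptor genes of the lineage did not move one way. Of 15 tested, 8 were higher, 6 lower and 1 did not pass, with a median log2 fold change of 0.37 against -0.06 over all genes. Il1rl1, the IL-33 receptor gene, was at 8.45, 13.7, 11.1 and 15.9 CPM in members, against 1.51, 1.13, 1.05 and 1.61 CPM in the other cells (3.31 ± 0.35 on the log2 scale, adjusted p = 1.42e-14 with edgeR). Csf2rb, the beta chain shared by the receptors of IL-3, IL-5 and GM-CSF, was at 78.8, 57.0, 58.6 and 38.5 CPM in members, against 29.8, 26.9, 30.04 and 26.7 CPM in the other cells. Members were above the other cells in every tube for both genes. The log2 fold change of Csf2rb was 1.10 ± 0.12, with the reservation that its near-identical copy Csf2rb2 (1.02 ± 0.30) could have taken or given reads. The IL-3 receptor alpha chain gene Il3ra rose by 0.85 and Fcer1g by 0.84 on the log2 scale. Kit, the stem cell factor receptor gene and a sorting antigen here, was lower at 174, 301, 223 and 260 CPM in members, against 289, 374, 298 and 373 CPM in the other cells (-0.40 ± 0.07). The IL-18 receptor genes Il18r1 (-1.07) and Il18rap (-0.97), the IL-4 receptor gene Il4ra (-0.81) and the integrin gene Itgb7 (-0.85) were lower as well. Within cells of 5000 to 20000 UMIs 14 of these genes could be tested, of which 6 were higher, 3 lower and 5 did not pass.

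Among granule and mediator genes 8 of 15 could be tested, of which 6 were higher, 0 lower and 2 did not pass (median 0.53). Besides Hdc these included Cd63, a granule membrane tetraspanin (log2 fold change 1.02 ± 0.09), and Srgn, the serglycin core protein that packs granule proteases (0.59 ± 0.06). Slc18a2, the transporter that loads histamine into vesicles, was at 60.1, 135, 59.0 and 93.6 CPM in members, against 46.9, 85.8, 50.2 and 81.3 CPM in the other cells. The values overlapped between tubes while members were higher within each tube, and the increase of 0.42 ± 0.10 lost its call without the block (0.33) and in GEM-X counts alone (0.24). In lipid mediator synthesis 3 of 9 tested genes were higher, 3 lower and 3 did not pass (median -0.55). Alox5, the 5-lipoxygenase of leukotriene synthesis, was at 9.39, 4.56, 8.72 and 13.3 CPM in members, against 0.511, 0.926, 0.421 and 0.543 CPM in the other cells (4.26 ± 0.41). Lta4h, the leukotriene A4 hydrolase gene, rose by 0.87, and the prostaglandin synthase genes Ptgs1 (-1.40) and Hpgds (-1.28) were lower. The increase of Lta4h was 0.15 and not called without cells of the 3 other rules. The Hpgds decrease, with 0 UMIs in members of both positive tubes, lost its call in v3.1 counts alone (-1.43) and under stricter membership (-1.65).

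IgE receptor signalling genes were mostly lower or did not pass, with 2 of 13 higher, 6 lower and 5 not past the test (median -0.27). The adaptor gene Gab2 (0.30) and the kinase gene Syk (0.27) were higher, though Syk lost its call without M1neg (0.26), without M2neg (0.23), in v3.1 counts alone (0.11) and under stricter membership (0.17). Plcg2 (-0.53), Lcp2 (-0.57) and Lat (-0.44), for a phospholipase and 2 adaptors downstream of the receptor, were lower. Of 12 genes for the chondroitin and heparin chains of granule proteoglycans 3 rose, 0 fell and 9 did not pass. Of 11 eosinophil genes 3 could be tested, Siglecf, the IL-5 receptor gene Il5ra and the broader granulocyte factor gene Cebpe, and all 3 were higher, though Cebpe was not without cells of the 3 other rules (-0.57). Siglecf, a sialic acid receptor of eosinophils, was at 16.9, 13.7, 15.5 and 19.9 CPM in members, against 4.43, 4.66, 3.62 and 3.74 CPM in the other cells (2.19 ± 0.25).

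Among 17 transcription factor genes 8 were higher, 1 lower and 8 did not pass (median 0.19). Gata2 was at 80.7, 146, 75.3 and 106 CPM in members, against 59.8, 100, 59.2 and 90.1 CPM in the other cells, an overlap between tubes with the members higher in each (log2 fold change 0.47 ± 0.09). Its call was lost without the block (0.38) and in v3.1 counts alone (0.38). Gata1 was at 27.2, 22.8, 21.8 and 15.9 CPM in members, against 7.66, 10.0, 7.50 and 11.9 CPM in the other cells, without overlap (1.37 ± 0.20). Cebpa was at 52.6, 38.8, 49.9 and 31.9 CPM in members, against 17.5, 10.5, 14.7 and 10.5 CPM in the other cells (1.80 ± 0.15). GATA and C/EBP genes were thus both higher in the summed members. Gata2 spans chr6:88193891-88207032 on the plus strand and Gata1 chrX:7959260-7978071 on the minus strand of mm10. Lmo4, an LIM-only cofactor, rose by 1.31 ± 0.10, and the mast cell factor gene Mitf (0.14) did not pass.

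Of 12 granulocyte-monocyte genes tested 10 were higher and 0 lower, with a median log2 fold change of 1.96, and their summed level was 2761 to 13851 CPM in members against 1192 to 2674 CPM in the other cells. Elane was at 3318, 77.5, 1159 and 1158 CPM in members, against 422, 113, 152 and 114 CPM in the other cells (2.76 ± 0.13). It was lower than in the other cells in M2pos and higher in the other 3 tubes, a spread that the pooled SE does not show. Cebpe, a factor of late granulocyte maturation, was at 115, 9.12, 39.6 and 49.8 CPM in members, against 4.91, 2.49, 2.24 and 2.92 CPM in the other cells (4.18 ± 0.21). The Cebpe change turned to -0.57 and was not called without cells of the 3 other rules. Ms4a3, a membrane gene of granulocyte-monocyte progenitors, was at 577, 73.0, 235 and 238 CPM in members, against 70.0, 24.2, 26.9 and 21.6 CPM in the other cells (3.15 ± 0.09). Mpo, the myeloperoxidase gene, was at 3926, 1104, 2328 and 2168 CPM in members, against 718, 337, 446 and 321 CPM in the other cells (2.46 ± 0.07). Of the genes named by size the other increases were Fcgr3 (3.29), Tent5a (2.90), Igsf6 (2.82), Ctsg (2.78), Hp (2.59), Gm1604a (2.56) and Anxa3 (2.49). Genes of mature neutrophils went the other way, 5 of 6 lower (median -4.12), led by Camp (-7.20 ± 0.48), S100a8 (-4.46) and S100a9 (-4.13). Camp had 1 UMI in the members.

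All 15 secretory pathway genes tested were higher (median 0.76). Calr, the chaperone calreticulin, was at 1961, 796, 1186 and 1044 CPM in members, against 561, 422, 476 and 418 CPM in the other cells (1.46 ± 0.07). All 20 G2/M cell cycle genes were higher (median 0.90), and 12 of 20 G1/S genes were higher with 8 not past the test. Mki67, a proliferation gene, was at 665, 1017, 630 and 765 CPM in members, against 457, 446, 428 and 426 CPM in the other cells (0.87 ± 0.07). Within cells of 5000 to 20000 UMIs 14 of 15 secretory and 20 of 20 G2/M genes were still higher.

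Stem cell genes were lower in 12 of 14 cases, with 0 higher (median -1.37). The factor gene Hlf was at 82.6, 95.8, 145 and 130 CPM in members, against 348, 434, 389 and 444 CPM in the other cells (-1.66 ± 0.08). Mecom (-1.86), Procr (-2.17) and Fgd5 (-1.94) were lower too. Ly6a, which encodes the sorting antigen Sca-1, was at 8.45, 6.84, 14.7 and 12.6 CPM in members, against 65.3, 58.7, 66.4 and 60.0 CPM in the other cells (-2.29 ± 0.16). The groups did not overlap for either gene. Lymphoid genes were lower in 9 of 9 cases (median -3.02, or -2.79 with genes at 0 in members set to a bound from 3 counts), including Dntt (-4.46 ± 0.18) and Flt3 (-2.04). MHC class II genes were lower in 6 of 7, with Cd74 at -3.10 and H2-Aa at -3.04, and interferon response genes in 10 of 12. The other large decreases were in Ebf1 (-6.15), Abcg3 (-3.49), Arpp21 (-3.20), Cmah (-2.86), Dlg2 (-2.78) and Prex2 (-2.78).

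Mcpt8-positive and Mcpt8-negative members differed in many lineage genes, while their Cpa3 values overlapped. Cpa3 was at 431, 453, 354 and 303 CPM in Mcpt8-positive members, against 400, 513, 456 and 558 CPM in Mcpt8-negative members. Ms4a2 was at 49.3, 9.34, 19.3 and 17.4 CPM in Mcpt8-positive members, against 145, 84.7, 132 and 167 CPM in Mcpt8-negative members, and Gzmb at 0, 0, 2.25 and 3.66 CPM against 119, 80.2, 165 and 114 CPM. The rule fixes that order in part, since a cell without Mcpt8 needs one of the other 3 genes. The comparison thus sets 2 ways of meeting the rule side by side. Genes whose RNA goes with that of Ms4a2 or Gzmb carry the same limit. For all other genes edgeR called 706 of 6143 (11.5%), 6.14% higher and 5.36% lower in Mcpt8-positive members, with a median of 0.00. Mcpt8-positive members had a median of 19555.5 UMIs and Mcpt8-negative members 13236.5. Within cells of 5000 to 20000 UMIs 181 of 5189 genes passed. Without members that met the granulocyte rule (81 Mcpt8-positive and 2 Mcpt8-negative) 195 of 5055 passed. The count was 449 of 6239 without M1pos, 393 of 5856 without M1neg and 332 of 5070 without M2neg.

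Mcpt8-positive members were higher in granule genes of neutrophil progenitors. Of 10 granulocyte-monocyte genes tested 9 were higher and 0 lower (median 2.96), and 4 of 6 were still higher without members of the granulocyte rule (median 1.40). Elane was at 4049, 149, 1308 and 1591 CPM in Mcpt8-positive members, against 5.19, 8.91, 33.7 and 9.70 CPM in Mcpt8-negative members (log2 fold change 6.77 ± 0.30, edgeR adjusted p = 6.79e-14). Ctsg, the cathepsin G gene, was at 2062, 770, 1160 and 1111 CPM in Mcpt8-positive members, against 88.3, 35.7, 125 and 60.6 CPM in Mcpt8-negative members (4.06 ± 0.19). Neither gene overlapped between the groups. The factor gene Cebpa was at 61.9, 60.7, 56.1 and 40.2 CPM in Mcpt8-positive members, against 10.4, 17.8, 3.37 and 9.70 CPM in Mcpt8-negative members (2.50 ± 0.36). Cebpe had 302 UMIs in Mcpt8-positive members and 0 in Mcpt8-negative members, which makes it at least 25.7-fold higher against 3 counts over the group. Hp, for haptoglobin, likewise had 240 UMIs against 0 and was at least 20.4-fold higher. The other increases named by size were the surface genes Igsf6 (4.72) and Clec12a (4.47), Anxa3 (4.46), the proteinase 3 gene Prtn3 (3.63), Rgcc (3.53), Mpo (2.98) and Ms4a3 (2.94). Hdc was also higher, at 110, 46.7, 50.3 and 64.9 CPM in Mcpt8-positive members, against 26.0, 0, 13.5 and 29.1 CPM in Mcpt8-negative members (1.87 ± 0.32). Of 15 secretory genes 11 were higher (median 0.95), a count that was 1 without members of the granulocyte rule.

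Mcpt8-negative members, of which 50 carried Ms4a2, were higher in GATA genes and in the vesicular amine transporter. Whether these differences go with the lack of Mcpt8 or with the presence of Ms4a2 or Gzmb was not tested. Gata1 was at 14.9, 0, 9.43 and 3.66 CPM in Mcpt8-positive members, against 83.1, 44.6, 115 and 48.5 CPM in Mcpt8-negative members (-3.25 ± 0.33, edgeR adjusted p = 1.81e-07). Gata2 was at 58.4, 126, 56.6 and 54.8 CPM in Mcpt8-positive members, against 182, 165, 216 and 242 CPM in Mcpt8-negative members (-1.61 ± 0.21). Slc18a2 was at 39.0, 56.0, 42.2 and 42.0 CPM in Mcpt8-positive members, against 156, 209, 186 and 230.3 CPM in Mcpt8-negative members (-2.11 ± 0.18). All 3 were lower in Mcpt8-positive members of every tube, with no overlap, and Gata2 and Slc18a2 kept their calls without members of the granulocyte rule (-1.23 and -1.53). The GATA cofactor gene Zfpm1 (-1.70) and its partner Tal1 (-1.11) were also lower, within a list of 13 factor genes of which 2 were higher, 5 lower and 6 did not pass. Fcer1a and Il1rl1 had too few counts for the test. Fcer1a was at 1.15, 14.0, 5.39 and 9.14 CPM in Mcpt8-positive members, against 20.8, 138, 74.2 and 31.5 CPM in Mcpt8-negative members. Il1rl1 was at 4.58, 0, 5.84 and 0 CPM in Mcpt8-positive members, against 26.0, 26.7, 50.6 and 58.2 CPM in Mcpt8-negative members, again without overlap.

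The largest decrease among the named genes was in Mfsd2b, a sphingosine-1-phosphate exporter of red cells and platelets, at 2.29, 4.67, 6.29 and 2.74 CPM in Mcpt8-positive members, against 72.7, 125, 57.4 and 107 CPM in Mcpt8-negative members (-4.07 ± 0.35). St8sia6 (-2.95), Rab27b (-2.49), which encodes a GTPase of granule release, Prkg1 (-2.48), Plxdc2 (-2.45), Pcdh7 (-2.31), Plxnc1 (-2.28) and Inpp4b (-2.21) followed. Mki67 was at 466, 700.1, 589 and 643 CPM in Mcpt8-positive members, against 1563, 1319, 942 and 1091 CPM in Mcpt8-negative members (-0.94 ± 0.14). That call was lost in v3.1 counts alone (-0.20), and of 20 G2/M genes 5 were lower, 0 higher and 15 did not pass. Kit was lower by a smaller amount (-0.49 ± 0.15). Its call did not hold with DESeq2 (-0.50), with no filter on low counts (-0.44) or without M2pos (-0.45) or M2neg (-0.35). The call was also lost in v3.1 counts alone (-0.12), within cells of 5000 to 20000 UMIs (-0.29) and without members of the granulocyte rule (-0.19). Leaving out cells over 3 times the median UMIs of their library lost it too (-0.37).

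**Figure D2:**
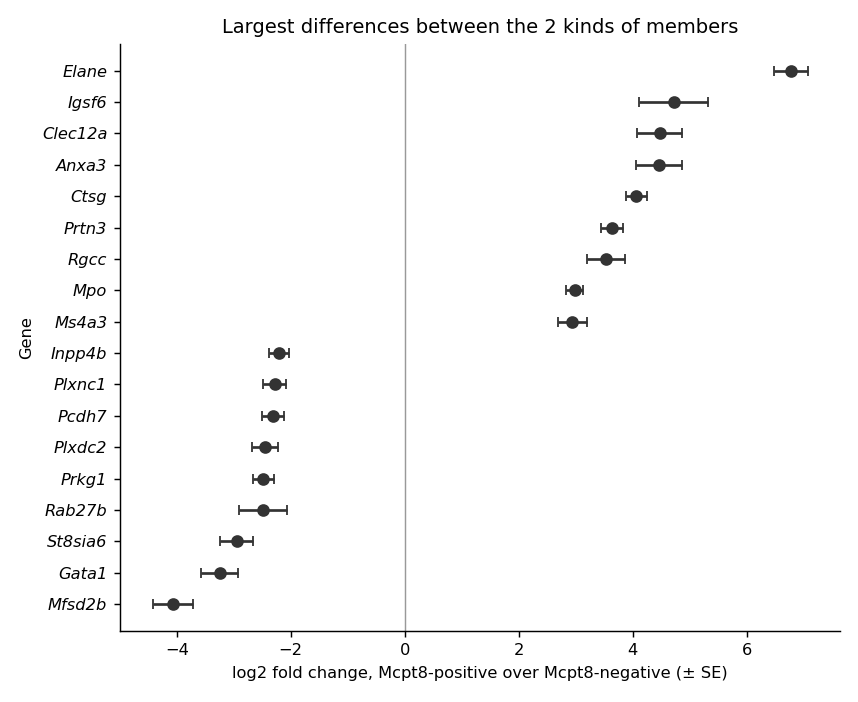
Log2 fold change of Mcpt8-positive over Mcpt8-negative members with its SE for 18 genes named by size, from summed counts of 4 tubes. Elane (6.77) and 8 other genes lie to the right of 0, and Mfsd2b (-4.07), Gata1 (-3.25) and 7 others lie to the left.

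The promoter words of the sequences above were counted over this comparison as a description. GATA words stood in 21.2% of the 302 promoter windows of genes higher in Mcpt8-positive members, in 12.4% of the 233 windows of genes lower in them, and in 15.9% of the windows of all genes tested. The C/EBP word stood in 10.3%, 6.44% and 6.79% of the same sets.

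Over single cells the gene sets overlapped. At least 1 UMI of Fcer1a, Il1rl1, Gata1 or Gata2 together with at least 1 of Elane, Ms4a3, Ctsg or Cebpe was found in 156 of 298 members, while 40 had only the first set, 92 only the second and 10 neither. For the rarer genes, at least 1 UMI of Fcer1a or Il1rl1 was found in 50 members and of Cebpe in 64, and 4 members had both. Cebpe was detected in 29.6% of Mcpt8-positive and 0 of 82 Mcpt8-negative members, which allows a share of cells with a Cebpe UMI of up to 3.66%, and in 0.565% of the erythroid population, which should lack it. Fcer1a was detected in 3.24% of Mcpt8-positive and 26.8% of Mcpt8-negative members, against 0.565% of the erythroid population, whose median depth of 34328 UMIs was the highest. Il1rl1 was detected in 4.63% of Mcpt8-positive and 30.5% of Mcpt8-negative members, in 0.788% of all other cells and in 61.0% of the erythroid population. After each cell was thinned to 4000 UMIs, which kept 213 Mcpt8-positive and 80 Mcpt8-negative members, the share was 12.7% and 0 for Cebpe, 0.939% and 12.5% for Fcer1a, and 0.939% and 17.5% for Il1rl1. The thinned erythroid population gave 11.9% for Il1rl1. Gata1 was detected in 6.48% of Mcpt8-positive and 47.6% of Mcpt8-negative members (1.88% and 21.3% thinned). It was detected in 48.4% of the megakaryocyte and 96.0% of the erythroid population (23.4% and 44.1% thinned). Elane was detected in 52.3% of Mcpt8-positive and 12.2% of Mcpt8-negative members (41.3% and 3.75% thinned), and in 12.4% of the erythroid population, which should lack it (1.69% thinned).

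The 14 members with both Mcpt8 and Ms4a2 were mixed. Of these 10 carried Fcer1a or Il1rl1, 4 carried Cebpe and 3 carried both. Of the 202 members with Mcpt8 and without Ms4a2, 5 carried Fcer1a or Il1rl1 and 60 carried Cebpe. Of the 50 members with Ms4a2 and without Mcpt8, 25 carried Fcer1a or Il1rl1 and 0 carried Cebpe, and the 32 members with neither gene gave 10 and 0.

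**Figure D3:**
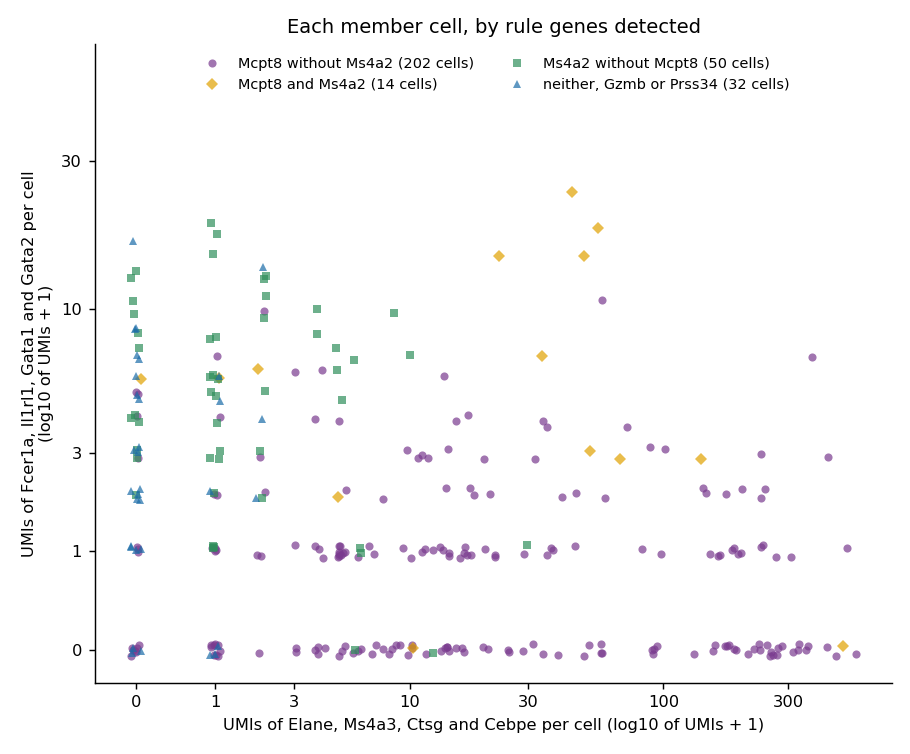
Each of the 298 members by its UMIs of Elane, Ms4a3, Ctsg and Cebpe (x axis) and of Fcer1a, Il1rl1, Gata1 and Gata2 (y axis), both as log10 of UMIs plus 1 with a small random shift to separate points, coloured by whether Mcpt8 and Ms4a2 were detected. The granule sum was the larger in 194 members, most of them with Mcpt8 and without Ms4a2, and the receptor and GATA sum was the larger in 82. The 2 sums have unlike scales, with 8237 UMIs of Elane and 5851 of Ctsg in members against 500 of Gata2 and 96 of Fcer1a. Which sum is the larger therefore does not class a cell by itself.

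The Mcpt8-negative members were also compared with all cells outside the rule, a comparison added after the Mcpt8 difference had been seen. These members were chosen through Ms4a2, Gzmb or Prss34, and genes that go with those carry that limit. Here edgeR called 1429 of 13633 genes (10.5%), 4.52% higher and 5.96% lower, with a median of -0.11, and 916 of 13638 genes without M2neg. Fcer1a (6.10 ± 0.40), Alox5 (5.14 ± 0.59), Il1rl1 (4.98 ± 0.42), Gata1 (2.92 ± 0.26), Slc18a2 (1.56 ± 0.13) and Gata2 (1.40 ± 0.13) were all higher. Hdc was higher by 3.17 ± 0.53 and lost its call without M2neg (2.41). Of 12 granulocyte-monocyte genes 2 were higher, 6 lower and 4 did not pass (median -0.997). Elane was lower by 3.56 on the log2 scale, though the calls of Elane (-3.77), Prtn3 (-1.30) and Ctsg (-1.07) were lost without the block. All 20 G2/M genes were higher (median 1.13), and 1 of 15 secretory genes was (median 0.00). Of 10 platelet and megakaryocyte genes 5 were higher and 0 lower (median 0.72), among them Gp5, a platelet glycoprotein gene (2.22 ± 0.38), Treml1 (1.89) and Itga2b, for integrin alpha IIb (1.33). Stem cell genes were lower in 9 of 14 cases, with Hlf at -1.72 and Ly6a at -2.69.

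Neighbouring progenitor populations were set beside the members, each chosen by a rule of the same kind and holding no member: 322 megakaryocyte cells (at least 2 UMIs of Pf4 and 1 of Gp9, Gp1bb, Ppbp or Gp6), 177 erythroid cells (at least 2 of Klf1 and 1 summed over a short list of erythroid genes that includes Car1, Ermap and Epor) and 379 granulocyte cells. Cells meeting more than 1 of these 3 rules were left out, all 298 members were used, and the genes of a population's rule were not tested in its comparison. That the lineage genes of a population were lower in members follows in part from how the population was chosen. With edgeR, members differed from the megakaryocyte population in 1763 of 10436 genes (16.9%, with 9.18% higher and 7.71% lower), from the erythroid population in 6123 of 10434 (58.7%, with 31.6% and 27.1%) and from the granulocyte population in 3122 of 10437 (29.9%, with 13.3% and 16.7%). The count was 1102 of 10551 without M1pos and 1142 of 9400 without M1neg for the megakaryocyte population. It was 2064 of 9401 without M1neg for the granulocyte population. Median depth was 13781.5, 34328 and 25961 UMIs in these populations. Within cells of 5000 to 20000 UMIs the counts were 760 of 7666, 901 of 7664 and 1018 of 7666 genes tested. In the erythroid comparison 5 genes called in both fits had the opposite sign there.

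Against the granulocyte population the members were higher in receptor and GATA genes and lower in granule genes. Fcer1a (6.44 ± 0.94), Gata1 (5.26 ± 0.44), Il1rl1 (5.25 ± 0.52), St8sia6 (4.52), Mfsd2b (4.14), Gna14 (3.40), Slc18a2 (2.97), Lat (2.36) and Gata2 (2.30 ± 0.23) were higher. Camp (-10.82), S100a8 (-8.69), S100a9 (-8.13), Fcnb (-7.43), Clec4a2 (-6.79), Prtn3 (-2.09) and Ctsg (-1.74) were lower. All 15 secretory genes were lower (median -0.92), as were 8 of 9 granulocyte-monocyte genes (median -1.64), while the median over all genes was 0.00. Hdc did not pass, at 0.09 ± 0.22, and the granulocyte population averaged 48.3 ± 6.04 CPM (SD, n = 4 tubes) of it. Mcpt8 was itself present in 127 of the 379 granulocyte cells.

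Against the megakaryocyte population Il1rl1 (2.87 ± 0.43) and Csf2rb (2.15 ± 0.24) were higher in members, and Elane (7.99), Hp (7.22) and Cebpe (6.83) were among the 5 largest increases. Hdc and Ly6c2 had 0 UMIs in the megakaryocyte population and were at least 87.2-fold and 44.7-fold higher in members. All 8 megakaryocyte genes tested were lower in members (median -2.81), led among named genes by Cavin2 (-7.32 ± 0.27), Gucy1b1 (-6.72), Ehd3 (-5.51) and F2rl2 (-5.37). Gata1 (-1.47), Gata2 (-0.98), Zfpm1 (-1.94) and Gfi1b (-1.82) were lower too. Neither G1/S nor G2/M genes gave a call, with 0 of 20 in each list. Against the erythroid population 11 of 13 receptor genes were higher (median 2.14), all 12 tested IgE signalling genes were higher (median 1.78), and all 8 erythroid genes were lower (median -5.63). Il1rl1 was an exception among the receptors, lower in members by 1.74 ± 0.23 on the log2 scale.

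Over the 7 sets of cells, Fcer1a averaged 66.2 ± 53.3 CPM in Mcpt8-negative members, 27.7 ± 33.5 in all members, 7.42 ± 5.47 in Mcpt8-positive members and 8.49 ± 5.74 in the megakaryocyte population (SD, n = 4 tubes in each set). The spread of neighbouring sets overlapped in that order. Gata2 averaged 201 ± 34.7 CPM in Mcpt8-negative members and 205 ± 35.3 in the megakaryocyte population, which did not differ beyond their spread. It averaged 74.0 ± 34.7 CPM in Mcpt8-positive members, 77.4 ± 21.1 in the cells outside the rule, 39.4 ± 15.8 in the erythroid and 15.9 ± 5.03 in the granulocyte population. Gata1 averaged 72.7 ± 32.9 CPM in Mcpt8-negative members, near the 68.9 ± 17.7 of the megakaryocyte population and under the 185 ± 18.7 of the erythroid population. Il1rl1 averaged 40.4 ± 16.5 CPM in Mcpt8-negative members and 39.8 ± 6.14 in the erythroid population.

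**Figure D4:**
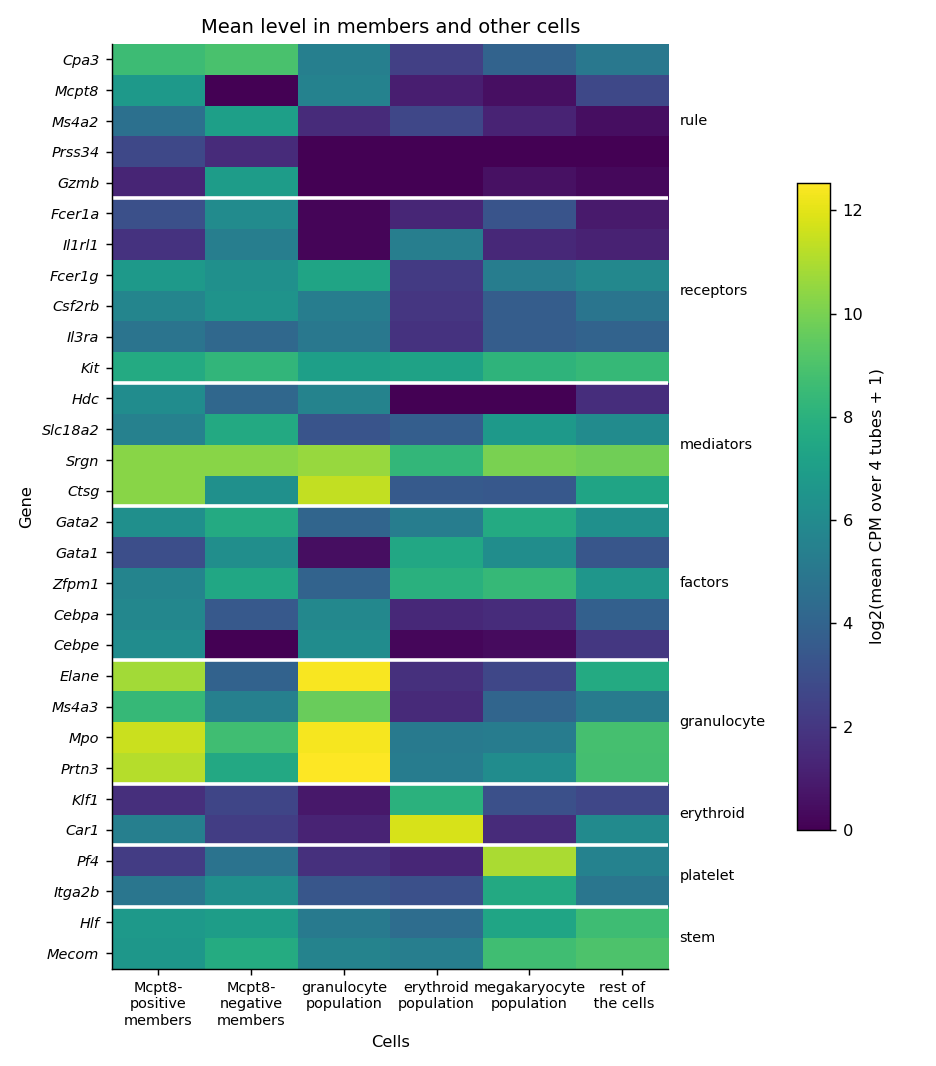
Mean level over 4 tubes, as log2 of CPM plus 1, of 30 genes in blocks by role (vertical) in Mcpt8-positive members, Mcpt8-negative members, the granulocyte, erythroid and megakaryocyte populations and all other cells (horizontal). Mcpt8-negative members have a Gata2 level near that of the megakaryocyte population and hold the highest Fcer1a level, and Mcpt8-positive members carry Elane, Mpo and Cebpe.

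The question of the sort was whether cells marked by the Tppp3 promoter in the newborn differed, and it was asked of the members in their share and in their genes. Members made up 1.26% of kept cells in M1pos (49 of 3900, exact 95% interval 0.931 to 1.66) and 0.887% in M2pos (35 of 3945, 0.619 to 1.23), against 0.972% in M1neg (124 of 12762, 0.809 to 1.16) and 0.724% in M2neg (90 of 12435, 0.582 to 0.889). The share was higher in the positive tube of each mouse, by 0.37 and 0.29 on the log2 scale, while the values of the gates overlapped between mice. The means of 1.07% in tdTomato-positive and 0.848% in tdTomato-negative tubes differed by 0.224 percentage points (exact permutation test, two-sided, p = 0.667, with 0.333 the smallest p that 2 tubes against 2 allow). The mean log2 ratio of 0.33 was 0.0229 after thinning to 4000 UMIs, where 46 members remained and the ratio was 0.07 in mouse 1 and -0.03 in mouse 2. Mcpt8-positive members made up 1% and 0.406% of the cells of M1pos and M2pos, against 0.791% and 0.483% of M1neg and M2neg. Mcpt8-negative members made up 0.256% and 0.482% of the positive tubes, against 0.180% and 0.241% of the negative tubes. The Mcpt8-negative share of members was thus 20.4% in M1pos and 54.3% in M2pos, against 18.5% in M1neg and 33.3% in M2neg. It was higher in the positive tube of each mouse, and the same exact test, which does not use the pairing by mouse, gave p = 0.667.

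**Figure D5:**
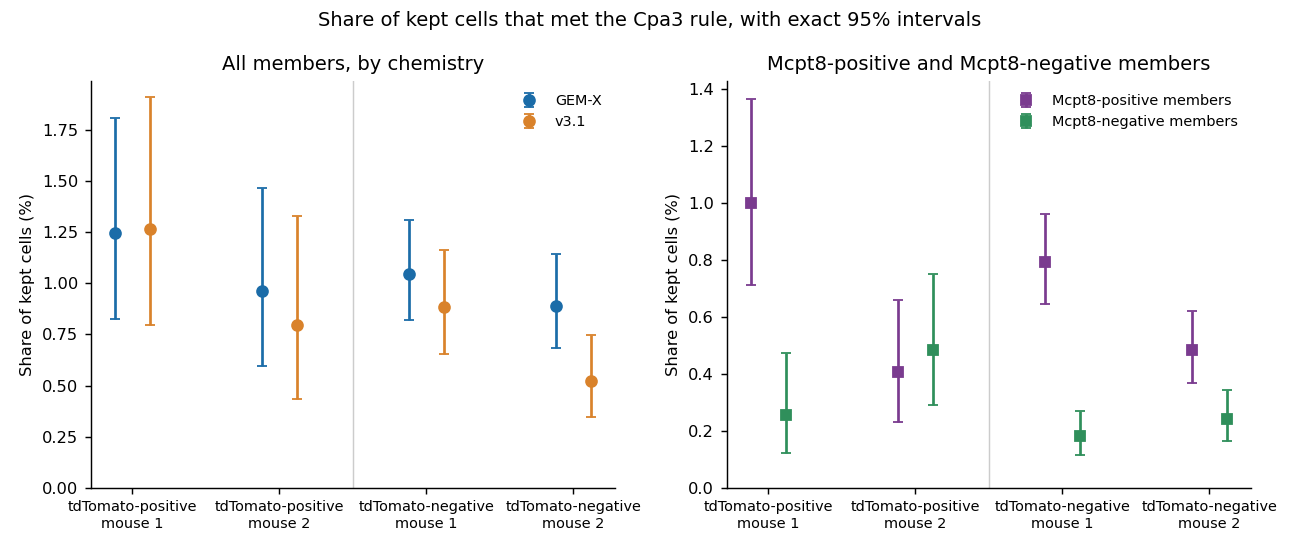
Share of kept cells, in percent with exact 95% intervals that cover counting error only, that were members in each tube and chemistry (left) and that were Mcpt8-positive or Mcpt8-negative members in each tube (right). Before thinning the tdTomato-positive tube is the higher within each mouse for all members, and the intervals of most tubes overlap.

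Between tdTomato-positive and tdTomato-negative members, with the mouse as a block, edgeR called 5 of 9538 genes (0.0524%), 0 higher and 5 lower. At an unadjusted edgeR p under 0.05 there were 340 of 9538 genes, less than the 5% that this threshold passes with no difference at all. DESeq2 called 0 (10 unadjusted). The fit had 1 residual degree of freedom. In simulated data with the same dispersion for every gene it recovered 5% of 2-fold and 75% of 4-fold changes. Flt3, a cytokine receptor gene of multipotent and lymphoid-primed progenitors, was at 35.7 and 52.4 CPM in tdTomato-positive members, against 89.2 and 88.3 CPM in tdTomato-negative members (-1.05 ± 0.25, edgeR adjusted p = 0.037). Nfia, a nuclear factor I gene, was at 28.2 and 27.4 CPM in tdTomato-positive members, against 86.8 and 44.5 CPM in tdTomato-negative members (-1.29 ± 0.28). Ccser1 was at 15.0 and 15.96 CPM in tdTomato-positive members, against 39.6 and 47.8 CPM in tdTomato-negative members (-1.42 ± 0.33). The gates did not overlap for these 3 genes. With 2 tubes against 2 and genes picked by the test, that adds no support of its own. The share of all tested genes without overlap was not counted. Tox, an HMG-box factor gene, was at 15.96 and 6.84 CPM in tdTomato-positive members, against 27.3 and 76.3 CPM in tdTomato-negative members, with 21.6% of its UMIs in 1 cell (-1.63 ± 0.34). The chemokine gene Ccl5 was at 3.75 and 0 CPM in tdTomato-positive members, against 18.6 and 25.2 CPM in tdTomato-negative members (-2.91 ± 0.64), and 49.4% of its 89 UMIs lay in 1 cell. No other member of the 25 gene lists passed besides Flt3. Fcer1a (0.94 ± 0.38), Cebpe (0.67 ± 0.25) and Il1rl1 (-0.28 ± 0.52) were among those that did not pass. No gene was called without the block over the 4 tubes. A fit without 1 tube also ran without the block and had 1 tube in a gate, so its count of calls is not given. In such fits each of the 5 calls was lost at least once, and loss of the tube and of the pairing cannot be told apart. Ccl5 lost its call without M1neg (-3.15) and M2neg (-2.78), Tox without M2neg (-1.07), Nfia without M1pos (-1.35) and M1neg (-0.60). Ccser1 and Flt3 lost theirs without M1pos, M1neg or M2neg (-1.56 to -1.34 and -1.06 to -0.79). In GEM-X counts alone Tox (-0.15), Ccser1 (-0.61), Flt3 (-0.71) and Nfia (-0.98) lost their calls.

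Since each tube was divided between chemistries, the members also gave a comparison of GEM-X with v3.1, with the tube as a block. With edgeR 1791 of 7458 genes (24%) passed, 12.4% higher and 11.6% lower in GEM-X, and 1057 of 6930 without M1neg. Lars2, a mitochondrial leucyl-tRNA synthetase gene, was at 420, 695, 506 and 499.7 CPM in GEM-X members, against 33.8, 13.4, 30.3 and 44.0 CPM in v3.1 members (3.87 ± 0.17). Camk1d (3.62), Il31ra (3.49), Cmss1 (2.68) and Filip1l (2.30) followed, and Lrrc4 (-2.43), Cdk2ap1 (-1.69), Jund (-1.32), Frat2 (-1.31) and Hypk (-1.31) were lower in GEM-X. Filip1l lies inside the span of Cmss1 on chr16, and whether the 2 genes share reads was not tested. The Cell Ranger version (8.0.1 for GEM-X and 7.1.0 for v3.1) changed with the chemistry, and the 2 cannot be told apart. Fcer1g was at 59.5, 62.2, 73.6 and 88.5 CPM in GEM-X members, against 110.3, 188, 107 and 144 CPM in v3.1 members (-0.83 ± 0.16), and Kit was higher in GEM-X (0.53), a call lost without M2neg (0.43). The chemistries did not overlap for Lars2 or Fcer1g. Of 11 granulocyte-monocyte genes 5 were lower in GEM-X and 6 did not pass (median -0.41). Among the 5, Ms4a3 (-0.44) lost its call without the block (-0.65), with DESeq2 (-0.63) and without M1pos (-0.12), M2pos (-0.37) or M2neg (-0.42). Prtn3 (-0.47) lost its call without the block (-0.46), with DESeq2 (-0.60) and without M1pos (-0.42) or M2pos (-0.21).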

How the data were processed

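Gene expression and hashtag libraries of sorted mouse LSK bone marrow cells were analysed. The authors deposited raw UMI counts per gene and barcode for 32285 genes and 4 hashtags, made with Cell Ranger 8.0.1 and 7.1.0 per the file headers, while the submitters' processing notes name Cell Ranger 7.0.0 and the mm10 genome. The chemistry of each matrix was inferred from its name and Cell Ranger version, and the mouse and gate of each hashtag were taken from a deposited text.

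Counts were summed per tube over the cells of a set (per tube and chemistry for the chemistries). They were tested with edgeR 4.0.16 in R 4.3.3 (TMM, filterByExpr, quasi-likelihood test, dispersion floor 1e-04) with the tube or, between the gates, the mouse as a block. The pairing comes from the animal, since each mouse gave 1 tube per gate. P-values were adjusted by the Benjamini-Hochberg method over all genes except the 5 rule genes, at 0.05. Standard errors were taken as the size of the log2 fold change over the root of F, and rest on a spread pooled over genes. DESeq2 1.42.0 was an alternative. Matrices and shares were handled in Python 3.11.15 with numpy 2.4.6, pandas 2.3.3 and scipy 1.17.1. The fits were tested on simulated counts. There the comparison of members with the other cells recovered 38% of 2-fold and 80% of 4-fold changes over 14014 genes. That of Mcpt8-positive with Mcpt8-negative members recovered 41% and 72%. The simulation gave every gene the same dispersion and no tube or mouse effect, so its rates need not hold for the real counts. Intervals are exact binomial and cover counting error only.

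The members, the 25 gene lists (312 genes) and the populations were chosen with earlier results of these data known. Genes were named by a rule: up to 12 per direction against the other cells, 10 for the Mcpt8 comparison, 6 between the gates and 5 otherwise, by size among called genes with at least 20 CPM on the higher side and 1 sign in all tubes and chemistries, plus up to 4 called genes of each list. The comparison of Mcpt8-negative members with the other cells, the division by granulocyte rule and the genes of the per-cell counts were chosen after values were seen. Promoter windows came from RefSeq (GRCm38.p6), and no other genome sequence was used. Some genes that the rule named are not reported here.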

Additional observations from a re-analysis of the deposited data

Results flagged for a closer look

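The hashtag rule left out 3819 barcodes that passed the gene and mitochondrial filters and belong to no tube, 1846 in GEM-X and 1973 in v3.1. Of these, 63 met the membership rule, which is 1.65% (exact 95% interval 1.27 to 2.11, counting error only), against 0.902% of the kept cells. They were looked at again because they lie outside every comparison and exceed the limit that a count of 0 allows. Barcodes with 2 strong hashtags can hold 2 cells, and the part of such pairs in the 1.65% was not tested. For the 24 genes named by size against the other cells, the 4 tubes were checked for one far from the others. On the CPM of members, Fcer1a in M2pos (77.5 CPM, with 4.69 to 15.3 CPM in the other tubes) and Camp in M1neg (0.396 CPM from 1 UMI in 1 cell, with 0 in the other tubes) stood apart. On the log2 ratio of members to the other cells no tube did. Chance gives such a gap in about 1 of 20 groups.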

How the results depend on the processing

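Direction held for all named genes and alternatives but 2: Cebpe against the other cells was -0.57 without cells of the 3 other rules, and Lta4h between Mcpt8-positive and Mcpt8-negative members was -0.10 without members of the granulocyte rule. The cause of each change below was not tested, beyond the fewer cells or samples of a setting's own construction. The number of genes tested differed between settings too, so the counts below are not shares of the same total. Against the other cells, the 4837 calls were 2058 in v3.1 counts alone, 2848 within cells of 5000 to 20000 UMIs, 2146 under stricter membership (66 members), 2899 without cells of the 3 other rules and 3045 to 4497 with a tube left out. The 1429 calls of Mcpt8-negative members were 841 with DESeq2 and 916 to 1125 with a tube left out, and edgeR's 616 higher and 813 lower genes stood beside 498 and 343 with DESeq2. The megakaryocyte comparison gave 672 in v3.1 counts, 760 in the UMI window and 1102 to 1493 with a tube left out. The erythroid comparison gave 3649, 901 and 4207 to 5960, and the granulocyte comparison 831, 1018 and 2064 to 2454. The 706 calls between Mcpt8-positive and Mcpt8-negative members were 261 with DESeq2, 91 in v3.1 counts, 181 in the UMI window, 195 without members of the granulocyte rule and 332 to 712 with a tube left out. The 5 calls between the gates were 11 with no filter, 0 without the block, with DESeq2, in GEM-X counts and under stricter membership, 27 in v3.1 counts, 10 in Mcpt8-positive and 3 in Mcpt8-negative members alone, and 6 to 135 with a tube left out. For the 5 genes, 33 alternative values lost the call and 21 held it, with the fits without 1 tube included. The 1791 calls between the chemistries were 683 with DESeq2 and 1057 to 1569 with a tube left out. The log2 share ratio of 0.33 between the gates was 0.0229 thinned, 0.19 in GEM-X, 0.57 in v3.1, 0.0435 for Mcpt8-positive and 0.75 for Mcpt8-negative members, 0.21 without cells over 3 times the median UMIs of their library, and 0.29 to 0.37 with a mouse left out.

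Without the replicate block the counts of calls were 4834, 1272, 1677, 6040, 3051, 720 and 1258 for the comparisons other than the gates, all within 1.5 times of the fits with the block, and Cmah (-2.64) and Itga2b (0.50) lost their calls against the other cells beside those given above. Il31ra (3.58), Filip1l (2.33) and Lrrc4 (-2.56) lost theirs with DESeq2. The Scrublet alternative was not run and was replaced by leaving out cells over 3 times the median UMIs. There were 82 Mcpt8-negative members, and Fcer1a, Il1rl1 and Cebpe did not pass the filter on low counts in the comparison with Mcpt8-positive members. The alternatives without very deep cells, without the Prg2-rich member, without granulocyte-rule members and by Mcpt8 were chosen after seeing the data.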

Other observations

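A single member of M1pos held 1432 of the 1436 UMIs of Prg2, the eosinophil major basic protein gene, in the members, and 113 of the 114 UMIs of the eosinophil peroxidase gene Epx. Prg3, a homologue of Prg2, was spread wider, with 107 UMIs in 8 members and 78 of them in 1 cell. Without the member richest in Prg2, 4745 genes differed between members and the other cells. Car1, an erythroid carbonic anhydrase gene, had 366 UMIs in 12 members, 160 of them in 1 cell.

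Metabolic and cytoskeletal genes of the members differed from those of the other cells as well. Of 15 glycolysis genes 13 were higher in members and 0 lower (median 0.45, against -0.06 over all genes; 34.8% of all genes were called), with Slc16a3, a lactate exporter, at 1.34 and Pgam1, phosphoglycerate mutase, at 0.997. Within cells of 5000 to 20000 UMIs 8 of the 15 were higher. Of 11 microtubule genes 7 were higher (median 0.65), led by the tubulin genes Tuba8 (1.38) and Tuba1c (0.96). Of 10 genes tied to quiescence 8 were lower (median -0.72), and of 15 immediate early genes 8 were lower and 0 higher (median -0.39). B cell genes were lower in 4 of 5 cases, macrophage and dendritic genes in 2 of 6 with 1 higher, and neither of 2 T and NK cell genes passed. Of 13 erythroid genes 1 was higher, 3 lower and 9 did not pass, and of 11 megakaryocyte genes 2 were higher, 3 lower and 6 did not pass.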
